A study of Homo sapiens with 8 samples.

Results

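The 4 HOX clusters are the gene arrays that hold all members of the HOXA, HOXB, HOXC and HOXD families, and their acetylation was followed here in A549, a widely used line of human lung adenocarcinoma cells. The clusters were taken as fixed windows of the hg19 genome: chromosome 7 from 27.10 to 27.30 Mb for HOXA, chromosome 17 from 46.58 to 46.83 Mb for HOXB, chromosome 12 from 54.30 to 54.47 Mb for HOXC, and chromosome 2 from 176.93 to 177.08 Mb for HOXD. Every deposited H3K27ac peak that overlapped a window was a member. H3K27ac is acetylation of a lysine of histone H3 at active promoters and enhancers. Peaks of all libraries that overlapped by 1 bp or more were joined into regions, and 42 of the 60669 regions of the whole data lay in the windows. HOXA held 13 of them, HOXB 17, HOXC 10 and HOXD 2. The windows were read against 38 HOX genes, 10 in HOXA, 10 in HOXB, 9 in HOXC and 9 in HOXD.

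The study asked which acetylated regions depend on CEBPB, a basic leucine zipper transcription factor, in a lung cancer line whose oxidative stress regulator NRF2 is active. A549 cells received a control siRNA (2 libraries, control 1 and control 2) or an siRNA against CEBPB, with 1 library for siRNA-1 and 1 for siRNA-2. All were harvested 48 h after transfection, and chromatin was immunoprecipitated for H3K27ac. The 4 input libraries were not analysed here. A549 is a single line, so the values describe that line and not lung tumours in general. The labels do not say whether the controls were separate cultures, and the knockdown libraries differ in their siRNA, so each spread may hold more or less than biological variation. The lists carry no measure of CEBPB itself, and neither the extent of the knockdown nor the identity of the line was checked here.

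HOX genes encode homeodomain transcription factors that give cells their position along the body axis. Within a cluster the genes stand in order: low-numbered genes are used toward the head, high-numbered genes toward the tail, and adult and cancer cells often keep part of this pattern. Active stretches carry H3K27ac, while silent stretches are commonly held by Polycomb proteins, which place methyl groups on the same lysine. The clusters also encode microRNAs of the miR-10 and miR-196 families, which lower the messenger RNAs of several HOX genes, and long non-coding RNAs such as HOTAIR, HOTTIP and HOTAIRM1.

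The microRNA sequences below are shown because the strongest HOXC region lay at MIR196A2, whereas the place of its relative MIR196B in HOXA had no peak. The mature forms come from RefSeq (GRCh38.p14), 5′ to 3′, with the seed (bases 2 to 8) in capitals.
hsa-miR-196a-5p (MIR196A2, plus strand, and MIR196A1, minus strand): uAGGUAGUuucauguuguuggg
hsa-miR-196b-5p (MIR196B, minus strand): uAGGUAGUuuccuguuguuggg
hsa-miR-10a-5p (MIR10A, minus strand): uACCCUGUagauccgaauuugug
Both miR-196 forms share the seed AGGUAGU, and miR-10a-5p has the seed ACCCUGU. The deposited lists hold no microRNA measurement, so the sequences say which gene product lies at each place and not how much of it was made.

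Promoters are shown for a gene start in HOXC, HOXA and HOXD that was called in all 4 libraries. The RefSeq table gave promoters for 20 of the 38 HOX genes (27 entries). Each line holds the 250 bases before a gene's start on the gene's own strand, 5′ to 3′, and capitals mark the C/EBP motif TTGCNNAA, the sequence family bound by CEBPB.
HOXC4 and HOXC5, shared start (plus strand): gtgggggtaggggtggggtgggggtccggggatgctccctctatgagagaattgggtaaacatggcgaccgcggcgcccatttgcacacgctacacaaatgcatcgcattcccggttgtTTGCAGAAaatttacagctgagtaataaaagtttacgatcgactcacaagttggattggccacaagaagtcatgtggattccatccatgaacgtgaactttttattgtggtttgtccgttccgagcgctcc
HOXA4 (minus strand): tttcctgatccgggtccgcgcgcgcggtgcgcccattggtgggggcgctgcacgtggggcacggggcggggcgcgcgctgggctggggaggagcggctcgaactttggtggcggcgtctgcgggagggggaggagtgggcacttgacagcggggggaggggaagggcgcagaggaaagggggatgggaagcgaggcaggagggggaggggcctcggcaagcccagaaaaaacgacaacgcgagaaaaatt
HOXD8 (plus strand): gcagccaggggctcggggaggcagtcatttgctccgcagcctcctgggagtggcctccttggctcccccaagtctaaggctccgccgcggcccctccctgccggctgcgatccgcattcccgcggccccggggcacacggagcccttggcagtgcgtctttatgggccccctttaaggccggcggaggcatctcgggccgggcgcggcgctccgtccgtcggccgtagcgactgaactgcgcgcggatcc
The shared HOXC4 and HOXC5 promoter held TTGCNNAA at 131 bases before the start and was 50.8% G and C. The HOXA4 and HOXD8 promoters were 70% and 72.4% G and C and held no such match in the bases shown. Over both strands of the 300-base windows (250 bases before to 50 after the start), TTGCNNAA occurred in 4 of 27 HOX entries, those of HOXA10, HOXC4, HOXC5 and HOXD11, against 10.5% of 35116 promoters. HOXC4 and HOXC5 were the same sequence and count once as evidence. The cyclic AMP response element TGACGTCA occurred in 0 of 27 entries (1.85% of all promoters) and the antioxidant response element TGACNNNGC, a form of the NRF2 site, in 3 of 27, those of HOXA6, HOXD11 and HOXD4 (13.3% of all). A match is a description of the letters and not a binding site.

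On chromosomes 1 to 22 and X the libraries held 45537 to 48216 peaks. Control 1 and siRNA-1 called 67.9 and 70.4 Mb in all, more than the 62.1 and 61.7 Mb of control 2 and siRNA-2. The HOX windows held 35 peaks in control 1, 37 in control 2, and 37 and 33 in the siRNA-1 and siRNA-2 libraries. The lists give no read counts, so the depth of each library is unknown and a place without a peak is a place without a call, not one without acetylation. The fold enrichments and −log10 q values per peak are the authors' own. They are given to describe peaks within a list.

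The called share of the window was very unequal between clusters. The same share over the whole genome was not computed, so the values below compare the clusters with one another only. HOXA had 10.5 to 12.1% of its window called over the 4 libraries and HOXB 9.0 to 11.4%. HOXC had 3.15 to 5.56%, and HOXD 0.639 to 0.871%. The map of peaks along the clusters shows separate regions with uncalled genes between them. The longest lay in HOXA3, beyond HOXB1, at HOXB6 and at HOXB7 with HOXB8, and HOXD had little. The clusters called 26.9, 32.5, 9.97 and 1.65 kb in at least 1 library, in the order HOXA, HOXB, HOXC and HOXD. Of these, 18.5, 19.0, 4.80 and 0.729 kb were called in all 4.

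**Figure D1:**
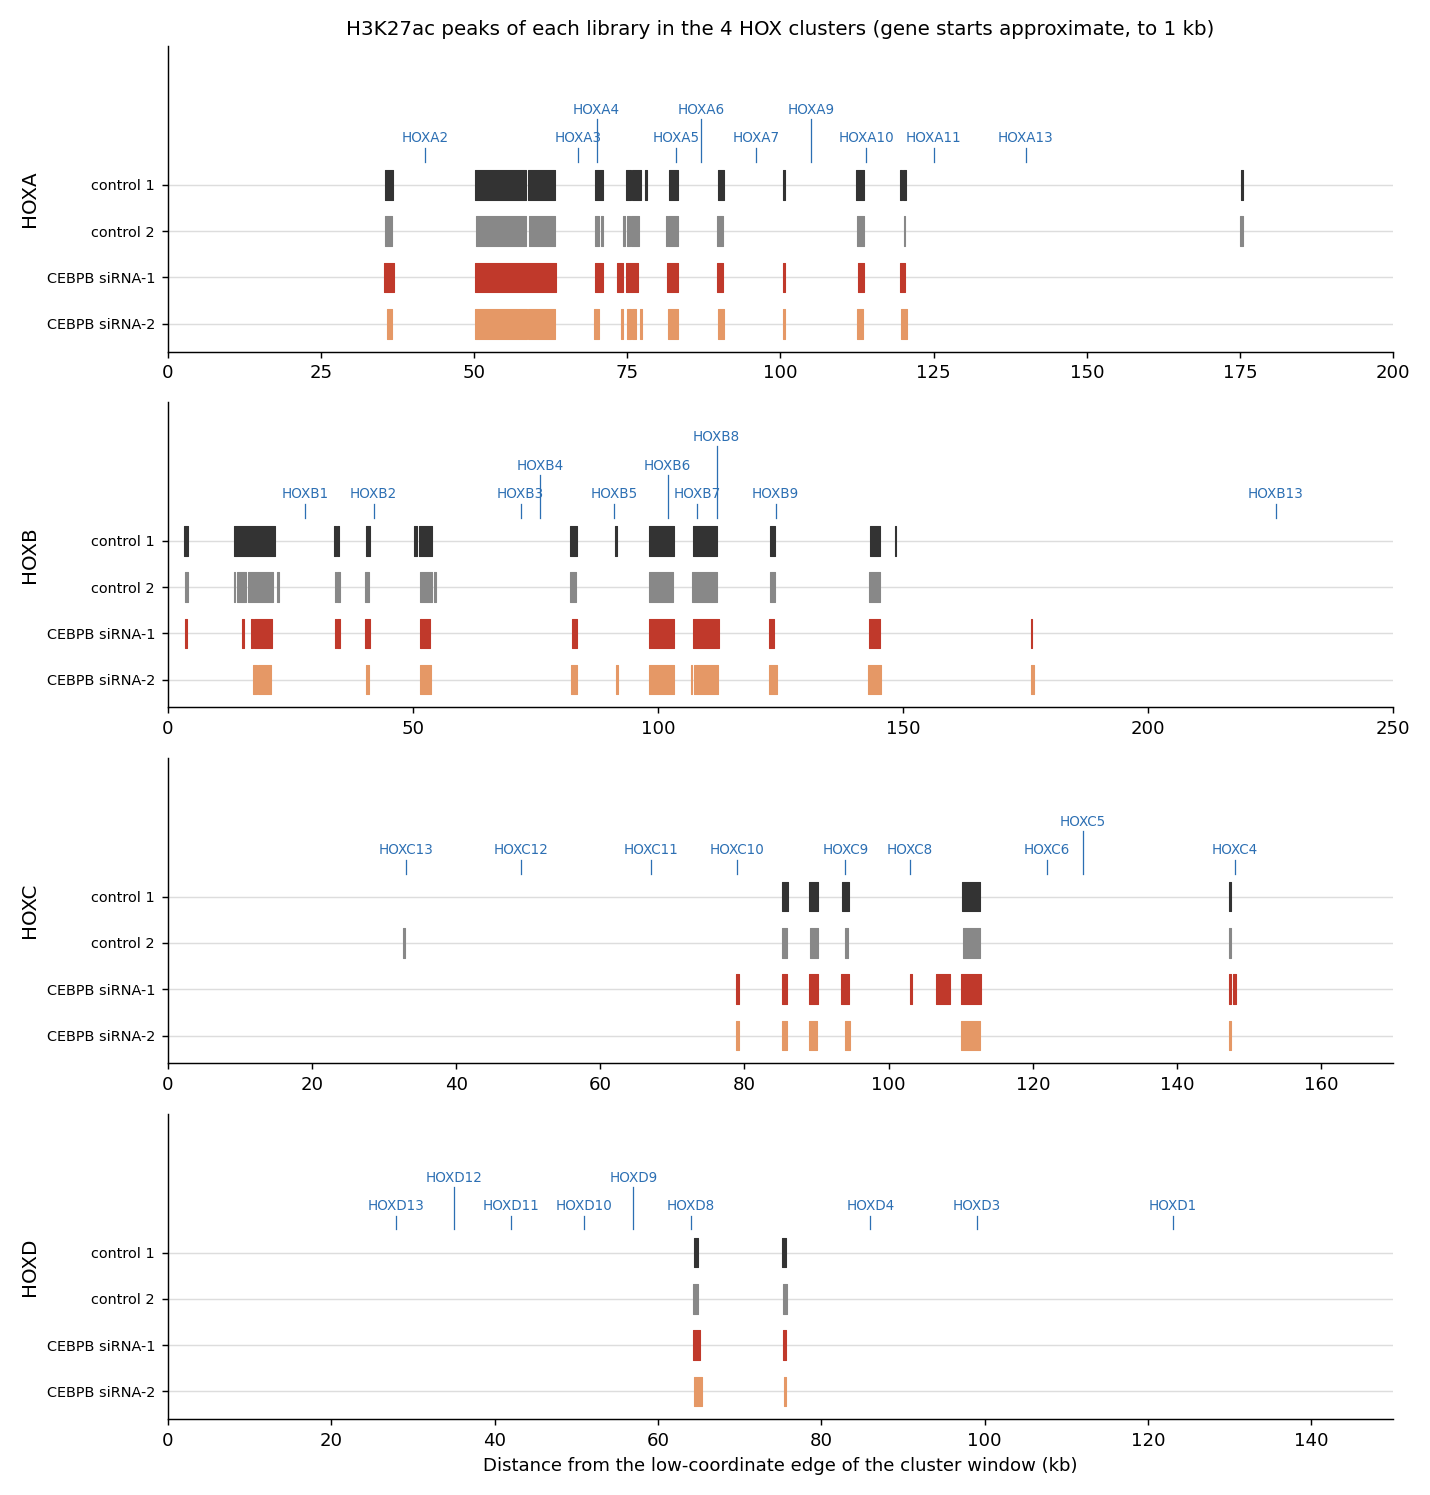
Peaks of each library (bars, rows) along the 4 HOX windows, as distance in kb from the low-coordinate edge of the window. Blue ticks are approximate gene starts, rounded to 1 kb, and a HOX gene with further starts is drawn at its main one. In every library the 4 regions of longest called length lie in HOXA3, beyond HOXB1, at HOXB6 and at HOXB7 with HOXB8, HOXC peaks lie mainly between HOXC10 and HOXC6, and HOXD has only 2 short regions.

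Gene places in hg19 were not in the tables used here. They were written from general knowledge to the nearest 1 kb, and only their order was checked, where all 38 genes stood in the same place as in RefSeq (GRCh38.p14). Counts of called gene starts below are therefore approximate. No share over all gene starts could be set beside them, because hg19 starts of other genes were not available. The counts do not say whether HOX starts were called more or less often than others. A peak lay within 1 kb of the start of 15 of 38 genes in control 1, 15 in control 2, 16 with siRNA-1 and 15 with siRNA-2. Starts of 13 genes were called in all 4 libraries: HOXA3, HOXA4, HOXA5 and HOXA10, HOXB6, HOXB7, HOXB8 and HOXB9, HOXC9, HOXC6, HOXC5 and HOXC4, and HOXD8. HOXC6 and HOXC5 were counted only through a start that they share with HOXC4. HOXC4 also had a region called in all 4 libraries at a second start (54447155 to 54447562). HOXA3 was counted through an internal start. A further 5 genes (HOXB2, HOXB5, HOXC13, HOXC10 and HOXC8) were called in some libraries only. HOXB2 lacked a call only with siRNA-2 and only at this distance, which is no finer than the rounding of the starts. Within 2.5 kb its start was called in all 4 libraries, and 14 genes were.

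The 20 genes with no peak at their start in any library included all of HOXD but HOXD8 and the high-numbered ends of HOXA and HOXB. They were HOXA2, HOXA6, HOXA7, HOXA9, HOXA11 and HOXA13, HOXB1, HOXB3, HOXB4 and HOXB13, HOXC12 and HOXC11, and, in HOXD, HOXD13, HOXD12, HOXD11, HOXD10, HOXD9, HOXD4, HOXD3 and HOXD1. HOXA13, HOXB13 and HOXD13 pattern the hindmost body, HOXA13 and HOXD13 also the distal limb, and HOXB13 is well known from prostate. Long stretches had no peak in any library. In HOXA the longest was 54.4 kb (27220610 to 27275055) across HOXA11 and HOXA13. In HOXB the longest was 73.4 kb (46756625 to 46830000) across HOXB13, and a 27.4 kb stretch (46634657 to 46662077) held the starts of HOXB3 and HOXB4. In HOXC, 46.0 kb (54332894 to 54378851) held HOXC12 and HOXC11. A further 34.4 kb there (54412760 to 54447154) held the starts of HOXC6 and HOXC5 other than the shared one. HOXD had 64.3 kb (176930001 to 176994290) across HOXD13 to HOXD9 and 74.3 kb (177005740 to 177080000) across HOXD4, HOXD3 and HOXD1. In every cluster, therefore, at least 46.0 kb in a row was without a call.

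Most other genes of the clusters had no peak at their start. Of 6 microRNA genes, the start of MIR196A2 was called in all 4 libraries, and those of MIR196A1, MIR196B, MIR10A, MIR10B and MIR615 in none. Of 6 non-coding RNAs and flanking genes, HOTAIRM1, a transcript at the low-numbered end of HOXA, was called in all 4. HOTTIP beside HOXA13, EVX1 beyond it, EVX2 beyond HOXD13, PRAC1 beside HOXB13 and HOTAIR beside HOXC11 were called in none.

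In HOXA, the longest and strongest region lay inside HOXA3, a gene needed for thymus and parathyroid formation (chromosome 7, 27150137 to 27163416). Its called length was 12733 bp in control 1, 12490 bp in control 2, 13264 bp with siRNA-1 and 12826 bp with siRNA-2. Fold enrichments of its strongest peak were 42.8, 41.0, 39.1 and 31.5 in the same order. The region was a little longer in both knockdown libraries than in either control. With siRNA-1 it was a single joined peak, and in the other lists 2 peaks. Its strongest summit lay 2002 bp apart between the controls and 12 bp apart between the siRNAs.

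Regions at the low-numbered side of HOXA differed in called length between the siRNAs. At HOTAIRM1 (27135343 to 27136932), 1396, 1260, 1590 and 854 bp were called in control 1, control 2, siRNA-1 and siRNA-2. At the start of HOXA4 (27169635 to 27171104), whose promoter is shown above, the lengths were 1419, 997, 1224 and 805 bp. The siRNA-2 value was the lowest of the 4 at both places, while siRNA-1 was the highest at HOTAIRM1 and between the controls at HOXA4. At HOXA4 the controls lay about as far apart as the siRNAs. By −log10 q, the HOTAIRM1 peak stood at percentiles 76.2 (control 1), 76.6 (control 2), 54.3 (siRNA-1) and 72.0 (siRNA-2) of its list. With siRNA-1 the call there was thus the longest, while its peak stood lowest. Farther along the cluster, the region between HOXA6 and HOXA7 (27189614 to 27190798) had 1011, 907, 1058 and 1008 bp, with no separation of the groups. RefSeq (GRCh38.p14) also lists starts of HOXA3 between these genes. Their hg19 places were not determined here, so the region may lie at one of them.

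At HOXA5, a regulator of lung development, the region (27181291 to 27183282) had 1552, 1799, 1802 and 1628 bp called in the order control 1, control 2, siRNA-1, siRNA-2. The region between HOXA4 and HOXA5 (27174747 to 27177372) had 2277, 1749, 2063 and 1595 bp. In neither region did the siRNA libraries stand apart from the controls. The HOXA10 gene, which acts in uterus and blood, had 2 regions. The one at its nearer start (27212406 to 27213613) had 1189 and 1177 bp in the controls and 999 and 868 bp with the siRNAs, and the one at its farther start (27219494 to 27220609) had 690 and 255 bp in the controls and 826 and 1004 bp with the siRNAs. The latter control values differed by more than the distance from control 1 to siRNA-1.

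In HOXB, 3 regions carried 59.8 to 64.4% of the called length. The HOXB6 region (chromosome 17, 46678111 to 46683282) had 5134, 5007, 5018 and 4980 bp called in control 1, control 2, siRNA-1 and siRNA-2. The HOXB7 and HOXB8 region (46686823 to 46692374) had 4916, 4984, 5226 and 5139 bp. HOXB6, HOXB7 and HOXB8 act in the trunk, and HOXB7 is often raised in tumours. Both regions had nearly the same length in all libraries, with peaks at percentiles 91.5 to 95.0 of their lists by −log10 q.

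The longest HOXB region behaved otherwise. It lay beyond HOXB1 at the edge of the cluster (46593446 to 46601810). Called length was 8273 bp in control 1, 6908 bp in control 2, 4367 bp with siRNA-1 and 3332 bp with siRNA-2. Each siRNA library was below both controls, at 57.5% (siRNA-1) and 43.9% (siRNA-2) of the control mean of 7591 bp ± 965 (SD, n = 2). The strongest peak stood at percentiles 95.0 and 94.2 of the control lists and 79.8 and 75.9 of the siRNA lists, with fold enrichments of 33.1, 30.9, 14.7 and 14.2. Of 6816 bp called in both controls, 2344 bp were called with neither siRNA, and all but 114 bp of this lay on the side away from HOXB1. No base was called in both siRNA libraries and neither control. The plot of its peaks shows that the longest peak of each siRNA library lay on the HOXB1 side. The siRNA-1 library also kept 2 short peaks on the far side, and siRNA-2 had 1 next to its longest peak.

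**Figure D2:**
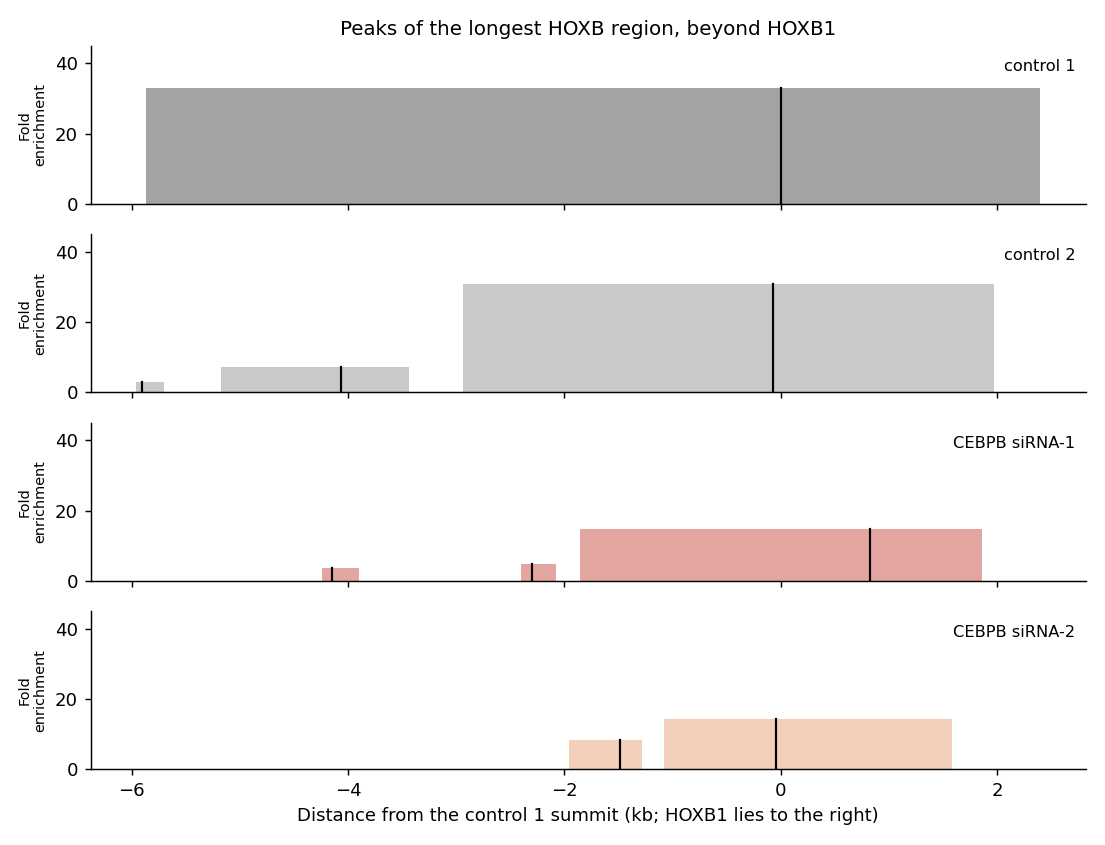
Peaks of the longest HOXB region in each library, as distance in kb from the summit of control 1. A bar spans a peak, its height is the authors' fold enrichment at the peak's summit (black line), and folds of different lists are not on a shared depth scale. Called length was 8273 and 6908 bp in the controls and 4367 and 3332 bp with the siRNAs, and the side away from HOXB1 was called less with both.

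The region inside HOXB3 (46631307 to 46633965), a hindbrain gene, had 2659 and 2441 bp called in the controls and 2101 and 2057 bp with the siRNAs, so both were below the controls. The region between HOXB9 and HOXB13 (46722868 to 46725462) went the other way, with 2102 and 2191 bp in the controls and 2333 and 2595 bp with the siRNAs. At HOXB2, another hindbrain gene, the region (46620229 to 46621231) had 769, 862, 1003 and 532 bp, with siRNA-1 above both controls and siRNA-2 below both. The region between HOXB4 and HOXB5 (46662078 to 46663449) had 1372, 1138, 1012 and 1185 bp, and the groups overlapped. The region at the start of HOXB9 (46702651 to 46704360) had 886, 1197, 1022 and 1710 bp, with the controls and siRNA-1 intermixed.

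In HOXC, the strongest region was short. It lay at MIR196A2 between HOXC10 and HOXC9 (chromosome 12, 54385165 to 54385988), and its peaks stood at percentiles 96.4 to 98.2 of their lists by −log10 q. Called length was 824, 791, 788 and 755 bp in control 1, control 2, siRNA-1 and siRNA-2, and the −log10 q of its peak 225, 214, 279 and 224. The summits of the 4 libraries fell within 50 bp. This is the place of the miR-196a-5p sequence shown above.

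The longest HOXC region covered the shared start of HOXC6, HOXC5 and HOXC4 (54409979 to 54412759), with 2537, 2284, 2742 and 2703 bp. HOXC6 is a trunk gene often raised in tumours, and both siRNA libraries were slightly above both controls there. The region at HOXC9 (54393447 to 54394658) had 933, 484, 1120 and 746 bp, and the region between HOXC10 and HOXC9 on the HOXC9 side (54388933 to 54390267) 1278, 1184, 1327 and 1146 bp. In neither did the groups separate. A region between HOXC8 and HOXC6 (54406531 to 54408516) was called with siRNA-1 only, over 1986 bp with a fold enrichment of 11.6 and a −log10 q of 29.9, and it was singled out after its values were seen.

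In HOXD only 2 regions were called. At HOXD8, the sole HOXD gene with a called start, the region (chromosome 2, 176994291 to 176995415) had 467 and 588 bp in the controls and 910 and 976 bp with the siRNAs. Its fold enrichments were 8.49, 4.85, 4.91 and 4.36, and control 1 held the strongest peak although its region was the shortest. The region between HOXD8 and HOXD4 (177005218 to 177005739) had 492 and 411 bp in the controls and 341 and 330 bp with the siRNAs. The groups did not overlap at either region and moved in opposite directions.

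**Figure D3:**
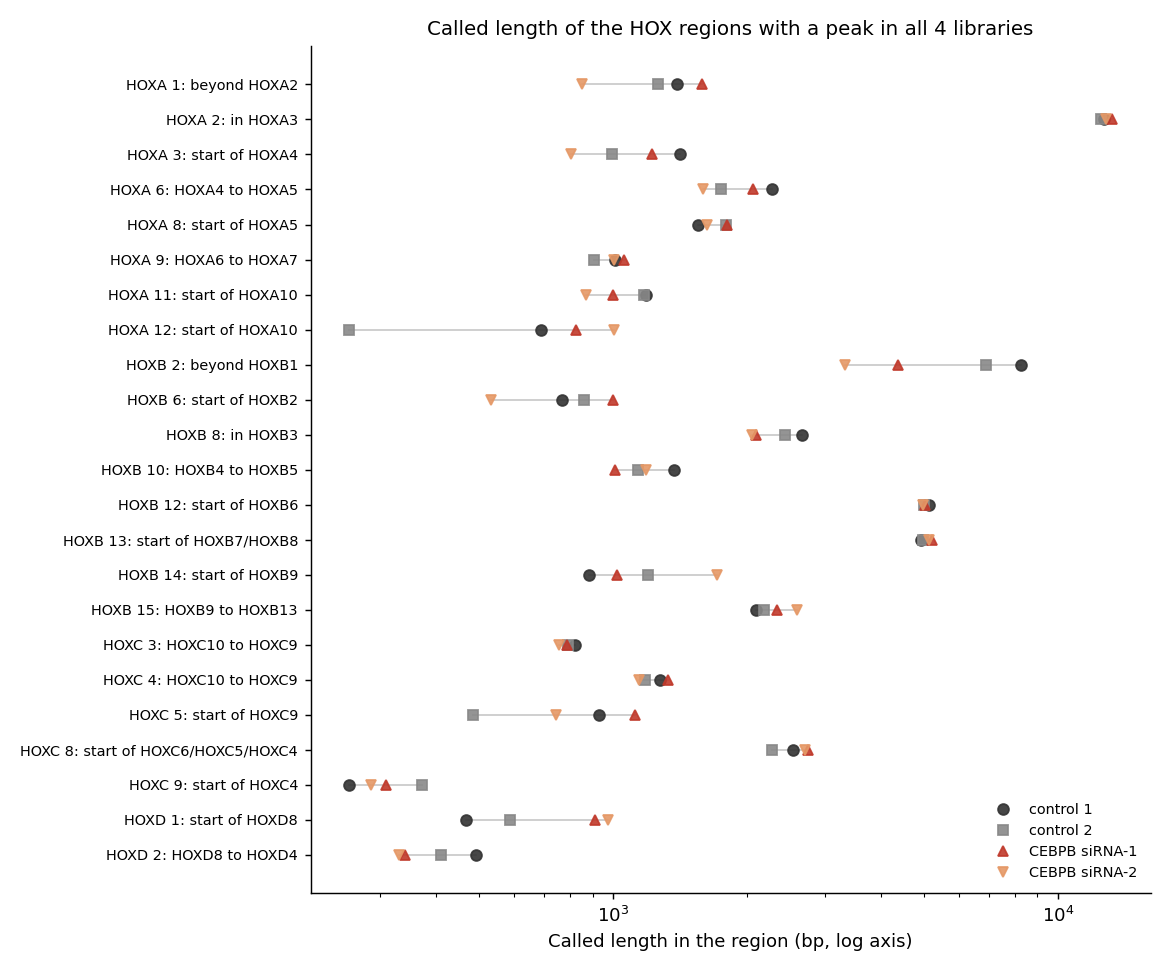
Called length in bp (log axis) of the 23 HOX regions with a peak in all 4 libraries, 1 row per region and 1 marker per library, with a grey line from the lowest to the highest value. Numbers count the regions of a cluster from its low-coordinate edge, and gene places are approximate. The longest HOXB region (HOXB 2) shows the widest gap between the siRNA libraries and the controls in bp, and the regions of HOXA3, HOXB6 and HOXB7 with HOXB8 the tightest groups of markers among the long regions.

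Summed over a cluster, called length was lower with both siRNAs in HOXB. HOXB had 28.4 kb in control 1, 26.7 kb in control 2, 23.5 and 22.5 kb in the siRNA-1 and siRNA-2 libraries. This was 27.6 kb ± 1.21 in the controls and 23.01 kb ± 0.723 with the siRNAs (SD, n = 2 each), a difference of −16.6% that was larger than either spread but could not pass a test (exact permutation test, two-sided, p = 0.33, the smallest that 2 against 2 allows; adjusted over the 4 clusters 0.444). Most of it was the region beyond HOXB1. Without that region, a calculation chosen after seeing the data, HOXB had 20.2, 19.8, 19.2 and 19.2 kb, and the difference shrank from −4.57 to −0.83 kb (exact permutation p = 0.33).

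HOXC had 5.83, 5.35, 9.46 and 5.98 kb called in control 1, control 2, siRNA-1 and siRNA-2. Both siRNA libraries were above the controls, by 2.13 kb on average (exact permutation p = 0.33, adjusted 0.444). That average rests on siRNA-1: the difference was 0.394 kb without it, and 1.14 kb without the region that only siRNA-1 called. HOXD had 0.959, 0.999, 1.25 and 1.31 kb, a difference of 0.2995 kb (exact permutation p = 0.33, adjusted 0.444). With peaks kept only from a −log10 q of 10, the HOXD difference turned to −0.3495 kb, because control 1 alone had a HOXD8 peak above it (18.2, against 6.24, 7.38 and 5.39). It was −0.1555 kb when each list was cut to the same total length.

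HOXA had 23.2, 21.3, 24.1 and 21.1 kb. The mean difference was 0.319 kb (exact permutation p = 1), with siRNA-1 above both controls and siRNA-2 below both. The same order of libraries, siRNA-1 and control 1 above control 2 and siRNA-2, is that of their total called length. Its part in the HOXA values was not tested. Over all 4 clusters the libraries called 58.5, 54.4, 58.4 and 50.8 kb, a difference of −1.82 kb (exact permutation p = 0.667) that was 0.21 kb without control 1 and 1.94 kb without siRNA-2. Numbers of peaks were 14, 14, 11 and 13 in HOXA, 14, 15, 15 and 12 in HOXB, 5, 6, 9 and 6 in HOXC and 2 each in HOXD, and only in HOXA did the counts of the groups not overlap (exact permutation p = 0.33, adjusted 1).

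**Figure D4:**
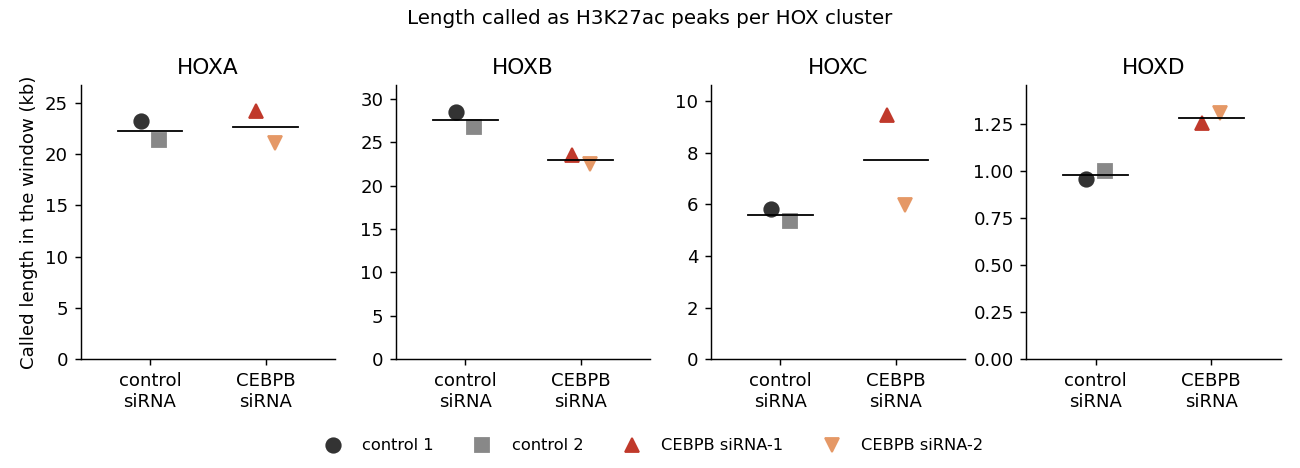
Called length in kb in each HOX window, 1 marker per library, with black lines at the mean of the 2 libraries of a group. The siRNA libraries lie below the controls in HOXB (23.5 and 22.5 kb against 28.4 and 26.7 kb), above them in HOXC and HOXD, and on both sides of them in HOXA.

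Whole regions lost or gained were few in number, and the gained share was close to that of all lists. Of the 27 HOX regions that both controls called, 1 was called with neither siRNA (3.7%, background 13.3% of such regions in all lists). It lay beyond HOXA13 (chromosome 7, 27275056 to 27275470), with 285 and 415 bp and fold enrichments of 3.92 and 4.39 in the controls. Of the 27 HOX regions called with both siRNAs, 3 were called in neither control (11.1%, background 13.6%). The lost count was 6 without control 1, 4 without control 2 and 4 without siRNA-1, and the gained count was 6 without siRNA-2. With a library left out, 1 call or 1 absence on its side is enough, so these counts follow a looser rule. The backgrounds given here do not apply to them.

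The gained region at the start of HOXC10, a hindlimb and motor neuron gene, was 405 and 348 bp in the siRNA-1 and siRNA-2 libraries (chromosome 12, 54378852 to 54379256), with fold enrichments of 5.52 and 5.51. The one between HOXA4 and HOXA5 (chromosome 7, 27173251 to 27174256) was 1004 and 231 bp, with fold enrichments of 4.10 and 4.33. The one between HOXB9 and HOXB13 (chromosome 17, 46756078 to 46756624) was 236 and 547 bp, with 3.62 and 6.45. All 4 lost or gained regions were weak: in none did both libraries that called it reach a −log10 q of 10. Over all lists, 704 of 4250 lost and 865 of 4103 gained regions reached it in both, so most such regions elsewhere were weak too.

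The number of missing calls with each siRNA depended on how peaks were counted. Among the 27 HOX regions shared by the controls, 1 was missing with siRNA-1 (background 19.2%) and 4 were missing with siRNA-2 (background 18.8%). The 3 missing with siRNA-2 alone were all in HOXB. A region at the outer edge beyond HOXB1 (46583350 to 46584171) had 689, 659 and 343 bp in control 1, control 2 and with siRNA-1. A pair between HOXB1 and HOXB2 had 297, 294 and 343 bp (46614017 to 46614386) and 314, 547 and 520 bp (46614552 to 46615134). None of these 3 reached a −log10 q of 10 in the controls. With lists cut to the same total length the order turned, with 3 missing with siRNA-1 and 1 with siRNA-2. With peaks kept only from a −log10 q of 10 these counts were 1 and 0. The difference between the siRNAs was not tested.

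Of the 42 HOX regions, 23 were called in all 4 libraries (background 39.8%). Calls made in a single library were 3 with siRNA-1 (background 13.1%), 0 with siRNA-2 (7.98%), 3 in control 1 (7.78%) and 4 in control 2 (4.70%). The 23 shared regions had a median best −log10 q of 43.8 and the 19 others a median of 5.35. Only 4 of those 19 reached 10 in any list: the region called with siRNA-1 only, the gained regions at HOXC10 and between HOXB9 and HOXB13, and a region between HOXA7 and HOXA9 that control 2 lacked.

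Changes of length among the 23 shared regions went both ways. A region was taken as shortened when both siRNA libraries were below both controls, and lengthened in the reverse case. There were 5 shortened regions (background 25.6%): those beyond HOXB1, in HOXB3, at the nearer HOXA10 start, at MIR196A2 and between HOXD8 and HOXD4. The MIR196A2 region met this rule narrowly, with 791 bp in control 2 and 788 bp with siRNA-1. Its fold enrichments were not lower with the siRNAs. There were 6 lengthened regions (background 26.9%): those in HOXA3, at the farther HOXA10 start, at HOXB7 and HOXB8, between HOXB9 and HOXB13, at the shared HOXC6 start and at HOXD8. None was halved or doubled between its nearest libraries (0 of 23 each, background 2.25 and 2.73%). The median ratio of siRNA to control length was 0.986 in the HOX regions (range 0.507 to 1.94) and 1.01 over all 24133 shared regions.

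Counted by base, 51393 bp of the HOX windows were called in both controls, of which 7.21% were called with neither siRNA (background 12.4%). Of 47191 bp called with both siRNAs, 4.85% were called in neither control (background 12.6%). By cluster the first share was 2.25% in HOXA, 12.8% in HOXB, 0.22% in HOXC and 2.95% in HOXD, so of the 4 clusters only HOXB stood near the background. In HOXB the 2344 bp beyond HOXB1 were most of the 3.21 kb concerned. The second share was 3.78, 2.93, 11.1 and 26.4% in the same order, the last resting on 284 bp at HOXD8.

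Overlap of called bases in the HOX windows, as shared over joint bases (Jaccard index), was 0.836 between the controls and 0.761 between the siRNAs. Between a control and an siRNA library it was 0.722 to 0.746, below both. The strongest summit of a shared HOX region moved by a median of 57 bp between the controls and 57 bp between the siRNAs, and ranged over a median of 117 bp in the 4 libraries, against 199 bp over all shared regions. It stayed within 100 bp in 10 of 23 HOX regions and in 6840 of 24133 overall. In the region beyond HOXB1, the siRNA summits lay 870 bp apart and the control summits 66 bp.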

How the data were processed

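H3K27ac ChIP-seq of A549 cells was compared between 2 control libraries and 2 knockdown libraries, 1 for each siRNA, which were taken as replicates. The submitters' processing notes name hg19, MACS2 2.2.7.1, BWA 0.7.17 and SAMtools 1.7.0. Options, and whether inputs served in peak calling, were not given in the sources used here. The deposited lists, called per library, give a fold enrichment (a linear ratio), a −log10 p, a −log10 q and a score for each peak. The score and −log10 p deposited by the authors were not used.

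Peaks of chromosomes 1 to 22 and X were joined at 1 bp overlap in Python 3.11.15, and called length was clipped to the windows. Libraries were compared by exact permutation tests (two-sided), with Benjamini-Hochberg adjustment over the 4 clusters, and regions by counts beside all regions. The sorting of regions into lost, gained and kept was checked on simulated lists with planted changes. Those lists held no split peaks, so the joining of split or neighbouring peaks was not tested. Regions described singly were the 3 longest of each cluster, every lost, gained, halved or doubled region, and regions missing with 1 siRNA but of −log10 q of 10 or above in both controls (none occurred). Others were named after their values were seen. The members and lists were chosen with earlier results of these data known, and gene places, base counts, summits and neighbouring genes were added after the lists were seen. Gene places are approximate and come from general knowledge, with only their order checked against RefSeq (GRCh38.p14). HOX cofactors and chromatin regulators outside the clusters were not analysed here. Alternatives were a −log10 q minimum, equal called length, stitching, joining, wider start windows and leaving out each library.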

Additional observations from a re-analysis of the deposited data

Results flagged for a closer look

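The called length of HOXA differed between the siRNAs by 3.09 kb: siRNA-1 (24.1 kb) was above both controls (23.2 and 21.3 kb) and siRNA-2 (21.1 kb) below both. The libraries of the knockdown thus moved in opposite directions from the controls, and this difference was not tested, since each siRNA had 1 library.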

How the results depend on the processing

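Of 97 alternative values, 73 kept their direction or, for counts, stayed within 1.5 times, 15 moved and 9 changed direction. The 73 include the replicate block values, which could not differ from the main ones. No test of 2 against 2 could pass a threshold. Size was not always kept: without siRNA-1 the HOXC difference was 0.3935 kb against 2.131 kb with all libraries. The lower called length of HOXB and the higher one of HOXC kept their direction in every alternative run, from −5.432 to −3.715 kb and from 0.3935 to 3.8685 kb when 1 library was left out. With peaks kept only from a −log10 q of 10 in every list, 0 regions were lost, 0 gained, 1 missing with siRNA-1 and 0 missing with siRNA-2, the HOXD difference was −0.3495 kb, and the peak count differences were 0 in HOXA, 0 in HOXB, −0.5 in HOXD and 0.5 over the 4 clusters. With lists cut to an equal length of 61.7 Mb, 3 regions were missing with siRNA-1 and 1 with siRNA-2, and the HOXD difference was −0.1555 kb. Stitching of neighbouring peaks left 1 gained region and 1 missing with siRNA-2. Leaving out 1 library, where 1 call or 1 absence on its side is enough, gave 1 to 6 lost and 3 to 6 gained regions. It also gave a called length difference of −1.227 to 1.865 kb in HOXA and −5.591 to 1.943 kb over the 4 clusters. The peak count difference was then −2.5 to 0.5 in HOXB and −3 to 1 over the 4 clusters. The cause was not tested. The replicate block compared libraries of the same number, and its mean difference equals the main one by arithmetic. The HOXB difference was therefore the same −4.57 kb (exact permutation p = 0.5, the smallest for 2 pairs), which adds no evidence. The shared numbers do not pair the samples by any label. The number of libraries and the unknown depth limit what a missing call can show.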
